A study of Arabidopsis thaliana with 163 samples.

Results

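The long repressive domains described here are stretches of *Arabidopsis thaliana* chromatin that carried H3K27me3, the trimethylation of lysine 27 of histone H3, over 6000 bp or more and overlapped no domain of H3K4me3, a mark of active promoters. Of 6054 H3K27me3 domains on the 5 nuclear chromosomes, 714 (11.8%) met this rule. They held 7.05 Mb, or 30% of the length under H3K27me3 and 5.92% of the 119 Mb genome. The domains were chosen by their width, H3K27me3 and H3K4me3, so these values are given as a description and not as a result. The 2 sets nearest to them are the 3775 shorter H3K27me3 domains that were also free of H3K4me3 and the 448 domains as long that touched H3K4me3.

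The study developed PHILO, a plate-based chromatin immunoprecipitation (ChIP-seq) protocol for small samples, and followed histone acetylation after the wound hormone jasmonic acid (JA). All samples used here were 10-day-old seedlings of the wild type Col-0 or, for the transcription factor MYC2, of a *myc2* mutant with the FLAG-tagged transgene MYC2:MYC2-FLAG. Untreated Col-0 gave the lists of H3K27me3, H3K4me3 and H3K36me3, each called against IgG on pooled libraries (3 by the labels), and 5 lists of H3K9ac, an acetylation of active genes, from 2 regular and 3 PHILO libraries. Lists of H3K9ac after 2 h of JA, given as gaseous methyl jasmonate, against untreated control came from 2 separate experiments. A large-scale experiment with several genotypes gave gains, and a time course gave gains and losses, each from pooled Col-0 libraries. MYC2 peaks were called on pooled libraries, by the study's methods after 2 h of JA against control, although the list itself names neither side.

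H3K27me3 is written by Polycomb repressive complex PRC2 and holds genes silent through cell divisions. In plants it covers regulators of flowers, embryos and meristems wherever these are not in use, and it is removed or diluted when such genes are switched on. H3K4me3 is linked to Trithorax-type activity and often replaces it at active genes. In Arabidopsis, GA repeats bound by BPC proteins and the telobox AAACCCTA bound by TRB proteins are known to help bring PRC2 to target genes, and MYC2, the leading transcription factor of the JA response, binds the G-box CACGTG and the related CACGTT.

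The sequences below belong to genes to which the results return. The first 5 are the 250 bases before annotated start sites of genes covered by long domains, read 5′ to 3′ along each gene from the RefSeq copy of the genome (TAIR10.1) in TAIR10 coordinates, with GAGAGA, AAACCCTA and CACGTG on either strand in capitals. *WUS*, a stem cell regulator, has the telobox and GAGAGA, both on the other strand, *FUS3*, an embryo regulator, has a run of GA, and *FLC*, the flowering repressor, has a G-box. *MBP1* and *CSLA10* were chosen because both have a G-box and gained H3K9ac with JA. All 5 printed stretches hold a motif. The 250 bases before *STM*, *AP1*, *CUC2*, *CLV3*, *MRN1*, *VSP1*, *JRG21* and *MYB24*, also covered by long domains, held none of these motifs. The *CSLA10* stretch lies almost wholly beyond the edge of its long domain, its G-box included.
WUS (AT2G17950), chr2:7810812-7811061, minus strand: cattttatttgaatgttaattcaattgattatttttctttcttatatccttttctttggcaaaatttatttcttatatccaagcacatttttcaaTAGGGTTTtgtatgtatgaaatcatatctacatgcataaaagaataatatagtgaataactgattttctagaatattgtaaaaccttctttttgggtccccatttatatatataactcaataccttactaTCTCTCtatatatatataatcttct
FUS3 (AT3G26790), chr3:9856213-9856462, minus strand: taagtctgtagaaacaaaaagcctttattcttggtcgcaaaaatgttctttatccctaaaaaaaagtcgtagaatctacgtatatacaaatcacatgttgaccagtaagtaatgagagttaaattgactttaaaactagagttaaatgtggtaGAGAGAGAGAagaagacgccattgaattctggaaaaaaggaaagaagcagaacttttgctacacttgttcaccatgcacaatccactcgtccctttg
FLC (AT5G10140), chr5:3179449-3179698, minus strand: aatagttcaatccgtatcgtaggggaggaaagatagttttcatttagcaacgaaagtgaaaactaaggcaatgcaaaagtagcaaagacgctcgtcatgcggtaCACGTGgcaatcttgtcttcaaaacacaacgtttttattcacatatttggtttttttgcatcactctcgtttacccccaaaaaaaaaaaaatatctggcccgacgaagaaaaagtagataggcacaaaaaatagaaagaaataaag
MBP1 (AT1G52040), chr1:19352792-19353041, minus strand: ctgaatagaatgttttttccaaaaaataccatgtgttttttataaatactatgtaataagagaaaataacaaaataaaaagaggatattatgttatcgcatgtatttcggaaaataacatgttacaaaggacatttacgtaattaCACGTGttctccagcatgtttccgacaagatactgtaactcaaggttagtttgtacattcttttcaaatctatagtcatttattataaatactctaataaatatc
CSLA10 (AT1G24070), chr1:8519985-8520234, minus strand: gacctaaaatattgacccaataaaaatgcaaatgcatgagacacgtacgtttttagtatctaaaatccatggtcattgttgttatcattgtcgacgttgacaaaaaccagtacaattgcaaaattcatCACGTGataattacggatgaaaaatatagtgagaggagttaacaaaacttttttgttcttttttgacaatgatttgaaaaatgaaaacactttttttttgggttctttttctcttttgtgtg

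The next windows are 61 bp centred on the highest MYC2 summit in long domains that gained H3K9ac with JA in both experiments or ranked among the strongest for MYC2. CACGTG or CACGTT, on either strand, is in capitals.
CSLA10 (AT1G24070), coding exon, chr1:8517509-8517569, minus strand: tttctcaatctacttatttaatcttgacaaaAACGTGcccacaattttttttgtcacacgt
MBP1 (AT1G52040), 920 bp upstream of the start, chr1:19353681-19353741, minus strand: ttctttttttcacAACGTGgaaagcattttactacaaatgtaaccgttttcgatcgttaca
GRX480 (AT1G28480), 48 bp upstream of the start, chr1:10014274-10014334, minus strand: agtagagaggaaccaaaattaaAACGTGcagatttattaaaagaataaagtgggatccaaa
AT4G23680, 112 bp upstream of the start, chr4:12337681-12337741, minus strand: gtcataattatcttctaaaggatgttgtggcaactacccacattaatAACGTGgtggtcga
AT1G47395, 206 bp upstream of the start, chr1:17382762-17382822, plus strand: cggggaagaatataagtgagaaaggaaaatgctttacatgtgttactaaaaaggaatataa
nearest start AT2G39980, outside protein-coding genes, chr2:16692564-16692624, minus strand: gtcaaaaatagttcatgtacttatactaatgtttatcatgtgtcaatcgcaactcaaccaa
nearest start AT5G40340, outside protein-coding genes, chr5:16136412-16136472, minus strand: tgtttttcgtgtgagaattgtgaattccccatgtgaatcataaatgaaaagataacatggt

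Motif content of the long domains was close to that of the genome or below it. Base composition was 33.3% GC against 34.3% for all H3K27me3 domains and 36% for the genome. GAGAGA occurred 1.14 times per kb against 1.38 in the genome, the telobox 0.168 against 0.166 times, and the G-box 0.122 times in both. In promoters, taken as 250 bp before to 50 bp after the start, GAGAGA was found for 28.0% of the covered genes and 29.2% of all protein-coding genes. The telobox was in 7.94% against 6.22% and the G-box in 4.93% against 7.68% of the same promoters. These are letter matches and not binding sites.

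The median long domain measured 8500 bp, and the middle 50% lay between 6800 and 11200 bp. At least 10000 bp was reached by 237 domains, 20000 bp by 32 and 30000 bp by 4, and the widest measured 37200 bp. Each held between 1406 and 27528 H3K27me3 counts (median 5232), so counting error was small at each of them. The authors' deposited log2 fold over IgG had a median of 2.23, ran from 0.60 to 3.21, and was between 1.59 and 2.74 in the central 80% of domains. The shorter domains free of H3K4me3 had a median of 1.66 and the long ones with H3K4me3 a median of 2.23. The width limit cut through a continuous range: 36 domains of exactly 6000 bp had a median log2 fold of 2.13, and 43 domains of 5800 bp just outside had 2.07. Of the 448 long domains left out for H3K4me3, 45 held at most 400 bp of it, and the median was 1000 bp. Counts per kb were 603 for H3K27me3 and 71.9 for IgG at the median. In the densest domain the counts equalled 60.7% of all positions on both strands, so if each position was counted once, as the lists allow, the highest folds are compressed. Among the 714 domains, width and fold were nearly unrelated (Spearman's rho 0.11 across domains, which are not independent replicates).

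**Figure D1:**
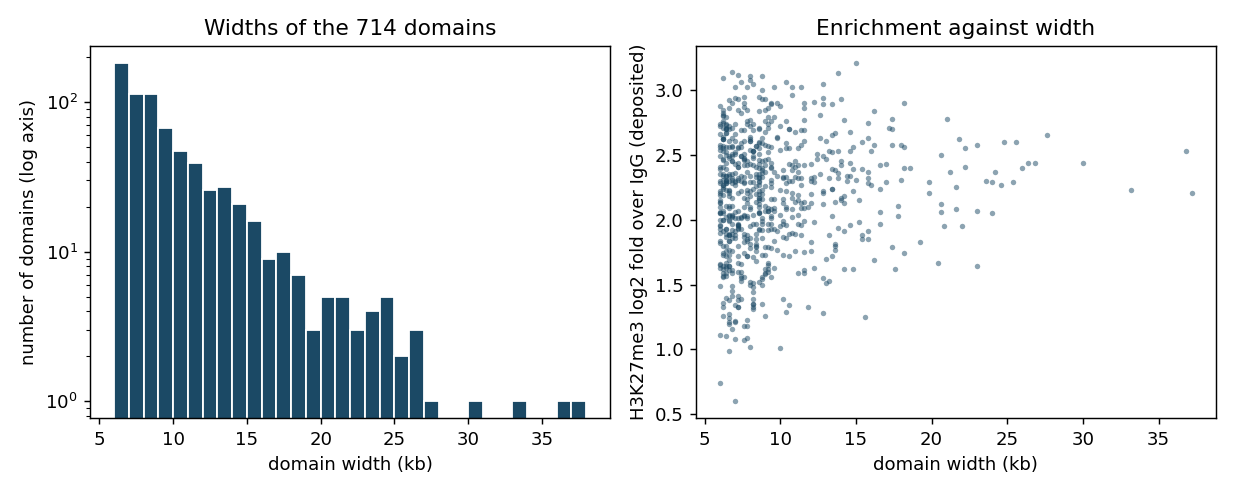
Left, the number of long H3K27me3 domains free of H3K4me3 by width in kb, in bins of 1 kb and on a log axis. Right, the authors' deposited H3K27me3 log2 fold over IgG of each domain against its width in kb; widths run from 6000 to 37200 bp, log2 folds from 0.60 to 3.21, and the 4 domains of at least 30000 bp lie between 2.21 and 2.53.

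The genes under these domains were counted where at least 50% of their length was covered. By this rule 1662 of 27444 protein-coding genes (6.06%) lay in a long domain, out of 6657 (24.3%) in any H3K27me3 domain. A typical domain covered few genes: 199 covered 1, 226 covered 2, 135 covered 3, 61 covered 5 or more, and 35 covered none. Genes took less of the length and were shorter than in the genome. By number they were not sparser, with 1662 covered in 7.05 Mb against 27444 in 119 Mb. Protein-coding genes took 42.5% of the length against 54.1% of the genome, and the median covered gene was 1569 bp long against 2078 bp for all genes. Of the 1662 genes, 11 (0.662%) touched H3K36me3, a mark of transcribed gene bodies, against 54.6% of all protein-coding genes. H3K4me3 touched 63.5% of all protein-coding genes, and the rule left out domains with it, so this contrast follows in part from the rule. H3K36me3 touched 10 of the 714 domains (1.40%, 95% Wilson interval 0.763% to 2.56%), against 5.96% of all H3K27me3 domains and 0.503% of the shorter ones free of H3K4me3. In 9 of the 10 it entered the edge by 200 to 600 bp. The tenth, at chromosome 4, 10639601 to 10645800, had 3200 bp of H3K36me3 over AT4G19520, a gene of the TIR-NBS-LRR disease resistance class, and gave most of the 0.0851% of length covered. With a log2 fold of at least 1 for H3K36me3, that share was 0.0341%.

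Tandem families were a visible feature of the gene content. Product names were reduced by removing words such as family, protein and putative and closing numbers. Names such as hypothetical or uncharacterized were left out. Of 745 neighbouring pairs of covered genes with a product name, 250 (33.6%) shared the same reduced name, against 7.28% of 19513 other neighbouring pairs. The long domains with H3K4me3 had 27.6%. In 28 domains at least 4 genes had the same reduced name. A domain of 8800 bp at chromosome 3, 114201 to 123000, covered 8 genes of the ECA1 gametogenesis-related family. Another of 20400 bp at chromosome 5, 21362801 to 21383200, covered 8 genes named for copper transport. Runs of 5 were found for lipid-transfer proteins including *EARLI1*, beside the defence gene *AZI1*, in 26000 bp at chromosome 4, 7397601 to 7423600, and for chitinases at chromosome 2, 18075801 to 18091600. The peptide signal genes *RALFL10* to *RALFL13* shared a domain at chromosome 2, 8240201 to 8262400, as did the peptide genes *CLE4* to *CLE7* at chromosome 2, 13232401 to 13255400, and the seed albumin genes *SESA1* to *SESA4* at chromosome 4, 13606601 to 13614600.

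Of the 10 widest domains, 4 were among these 28. The widest, 37200 bp at chromosome 5, 18282201 to 18319400, covered 5 neighbouring TIR-NBS-LRR genes, AT5G45200 to AT5G45240. The next, 36800 bp at chromosome 5, 17027401 to 17064200, covered *MRN1*, the marneral synthase, and *CYP71A16*, the P450 that works next to it, with a log2 fold of 2.53. At chromosome 1, 21942601 to 21975800, a domain of 33200 bp covered 6 genes including the thioredoxin gene *TH7*. At chromosome 1, 24698801 to 24728800, a domain of 30000 bp covered the β-glucosidase genes *BGLU21* and *BGLU22* and 4 F-box genes. The largest number of genes, 13, lay in 25400 bp at chromosome 1, 8352801 to 8378200, from AT1G23560 to AT1G23690, many of them with the DUF220 domain of unknown function. None of these 5 domains had H3K9ac in any of the 5 untreated libraries, which held for 82.9% of all long domains. Also among the 10 widest, the domain at chromosome 3, 16301001 to 16327800, had H3K9ac in 5 libraries. The one at chromosome 4, 7397601 to 7423600, had it in 3.

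The highest enrichment belonged to other loci. The top log2 fold, 3.21, was at chromosome 5, 5616201 to 5631200, where 17365 H3K27me3 counts stood against 1042 IgG counts over 4 cystatin-like genes, protease inhibitors, and a cysteine protease gene. *DRNL*, a regulator of organ initiation, lay in a domain with 3.14 and *STM*, the homeobox gene that keeps shoot meristems, in one with 3.13. Next were the SKP1-like genes *SK19*, *SK14* and *SK16*, parts of ubiquitin ligases, with 3.12, and a run of 4 polyketide cyclase-type genes, AT1G14930 to AT1G14960, with 3.11. These 5 domains were 6800 to 15000 bp wide.

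Families were counted by product text across the genome. Genes for terpene or triterpene synthesis had the highest covered share of the 30 families, 21 of 52 (40.4%, 95% Wilson interval 28.2% to 53.9%), among them *TPS21*, *PEN3*, *LUP5* and *MRN1*. GDSL lipases had 24 of 101 (23.8%), LOB-domain regulators 10 of 43 (23.3%), pectin enzymes and inhibitors 47 of 246 (19.1%), and MADS-box factors 21 of 120 (17.5%). F-box genes were the most numerous, with 92 of 653 (14.1%). MYB factors had 27 of 176 (15.3%), WRKY factors 12 of 72 (16.7%) and cytochromes P450 31 of 248 (12.5%). At the other end, 3 of 344 ribosomal protein genes (0.872%) and 0 of 56 photosystem genes, with an upper 95% limit of 6.42%, were covered. Members of 1 family often share a domain, so these intervals cover counting error only and are too narrow. Names overlapped in part between families. Any H3K27me3 domain covered 78.8% of terpene, 57.4% of F-box, 52.3% of MYB, 55.6% of WRKY and 51.2% of P450 genes. For all protein-coding genes the share was 24.3%, so high coverage of these families was not particular to the long domains.

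**Figure D2:**
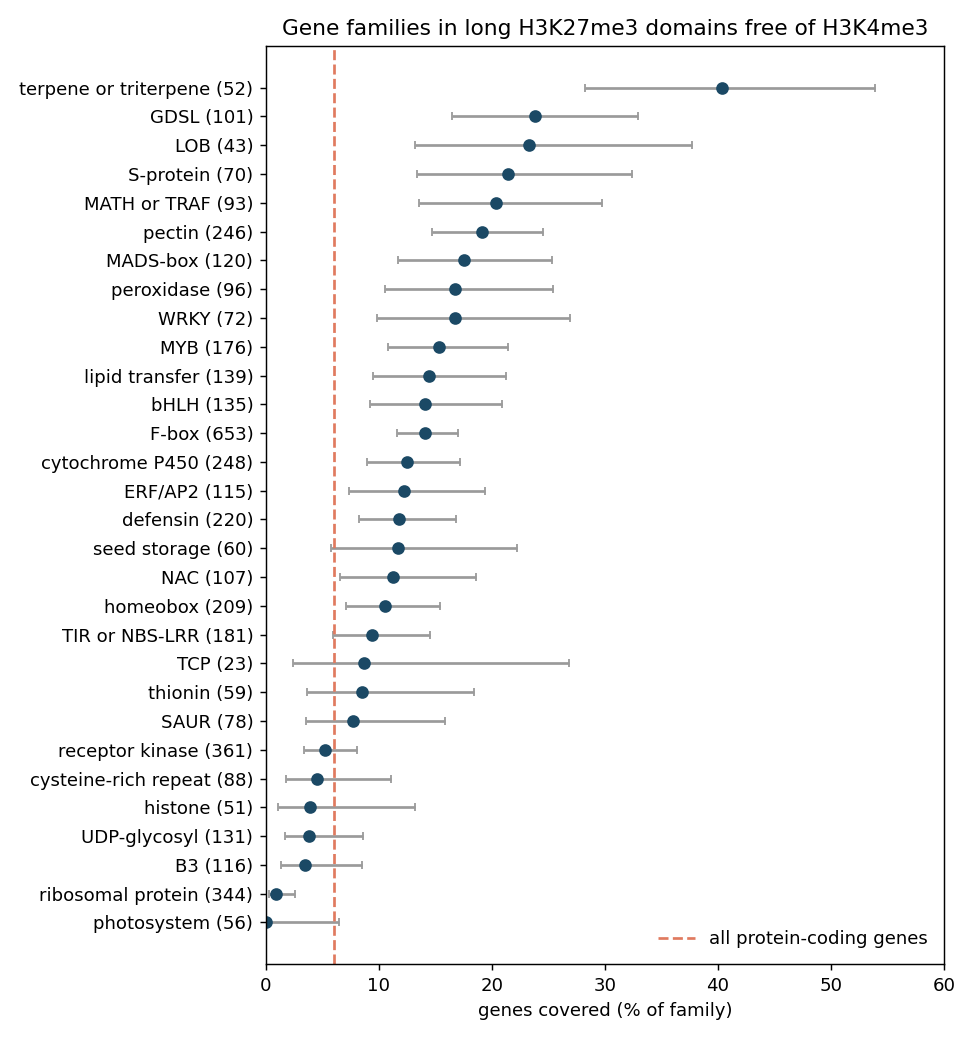
Share of each gene family covered over at least 50% of gene length by long H3K27me3 domains free of H3K4me3, in percent, with family size in parentheses. Points are shares, bars are 95% Wilson intervals and the dashed line is the 6.06% of all protein-coding genes; shares run from 0 for photosystem genes to 40.4% for terpene synthesis.

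Non-coding genes were covered as well. Of 326 miRNA genes, 39 (12%) lay in a long domain, and 269 of 3480 long non-coding RNA genes (7.73%) did. The cluster *MIR169i* to *MIR169n*, whose miRNA targets NF-YA factors, lay in 1 domain of 14800 bp at chromosome 3, 9871001 to 9885800, with a log2 fold of 2.56. *MIR169d* and *MIR169e* shared another at chromosome 1, 20039001 to 20045600. Further miRNA genes with developmental roles were *MIR172d*, *MIR319a*, *MIR319b*, *MIR160b*, *MIR166f* and *MIR156f*. Of 625 tRNA genes, 7 (1.12%) were covered.

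Developmental regulators were followed through fixed lists of known genes. In 8 lists, 43 of 129 genes (33.3%) lay in 39 long domains. The lists were drawn up with earlier results known, so their shares describe these genes only. The 39 domains had log2 folds from 1.22 to 3.13 with a median of 2.60, and 32 of them were above the 2.23 of all long domains. Of meristem genes, 12 of 21 were covered: *STM*, *KNAT1*, *KNAT2*, *WUS*, *CLV3*, *CUC2*, *PLT2*, *BBM* and the WUS-related *PRS*, *WOX2*, *WOX9* and *WOX11*. *CUC2*, which separates organs, had 2.96, *WOX9* had 2.94, *WUS* had 2.32 in a domain of 15800 bp, and *KNAT1* was lowest with 1.97. Of seed and embryo genes, 11 of 18 were covered, with 3.08 over *SESA1* to *SESA4*, 2.69 over *ABI3*, 2.60 over *FUS3*, 2.11 over *LEC1* and 1.60 over the oleosin gene *OLEO2*. *MEA*, itself a PRC2 subunit of the seed, lay in a domain with 2.24.

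Floral genes were divided between long and shorter domains. Of 14 floral MADS-box genes, 6 lay in long domains: *AG*, which specifies stamens and carpels, with a log2 fold of 3.06, *SEP3* with 3.05, *AP1* and *CAL*, which specify flower meristems, with 2.93 each, *STK* with 2.65 and *SHP2* with 2.31. The other 8 lay in H3K27me3 domains that were shorter or touched H3K4me3. Among flowering time genes 3 of 13 were covered: *FLC*, at chromosome 5, 3173401 to 3181400, with 3.11, *TFL1* with 2.70, and *FT*, the mobile flowering signal, with 2.08 in 21600 bp. Of 9 organ polarity genes *CRC* alone was covered, while the other 8, the YABBY and KANADI genes active in leaves among them, lay in H3K27me3 domains outside the rule, 7 of them with H3K4me3 on the gene. Auxin synthesis genes *YUC1*, *YUC4* and *YUC5* (3 of 11) and *MRN1* and *CYP71A16* of 7 triterpene cluster genes were covered. Of 36 JA response genes with a match, 5 were covered: the repressor genes *JAZ4* and *JAZ8*, the storage protein gene *VSP1*, *MBP1*, which encodes a myrosinase-binding protein, and the defensin gene *PDF1.2*. Another 15 lay in other H3K27me3 domains.

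Long domains were spread over all chromosomes, with 199, 117, 132, 110 and 156 on chromosomes 1 to 5. This was 5.63 to 6.54 domains per Mb. They were scarce per Mb around the gene-poorest Mb of each chromosome, which serves here as a rough mark of the gene-poor middle region. The longest stretches without a long domain were 1.95 to 3.75 Mb, all around that point, such as 2017001 to 5766400 on chromosome 2. Within 2 Mb of it there were 1.75 long domains per Mb, between 2 and 4 Mb 8.29, between 4 and 6 Mb 8.53, and beyond 14 Mb 3.63. Other H3K27me3 domains were also scarce within 2 Mb, with 13.6 per Mb. They did not fall towards the chromosome ends, with 52.7 per Mb between 4 and 6 Mb and 53.6 beyond 14 Mb. Relative to protein-coding genes, long domains were not scarce near that point. There were 26.1 per 1000 genes within 2 Mb, 39.2 between 2 and 4 Mb, 26.1 between 6 and 8 Mb and 12.5 beyond 14 Mb. The outermost class held only 19 domains, and chromosomes differ in arm length, so not all 5 contribute to it.

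**Figure D3:**
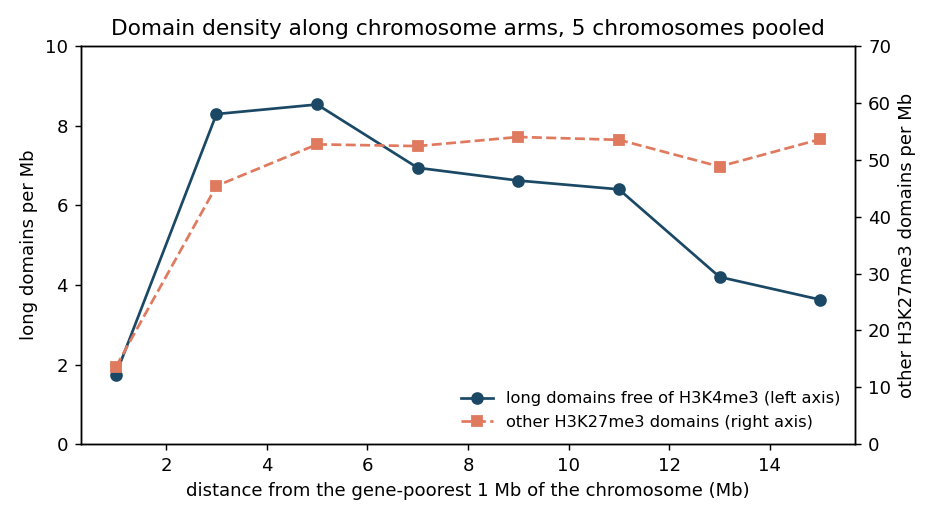
Domains per Mb in classes of 2 Mb by distance from the gene-poorest 1 Mb of each chromosome, with chromosomes pooled. Circles (left axis) are long H3K27me3 domains free of H3K4me3, highest at 8.53 per Mb between 4 and 6 Mb and 3.63 beyond 14 Mb; squares (right axis) are all other H3K27me3 domains, at 45.4 to 54.0 per Mb from 2 Mb outwards.

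Neighbourhood differed little from other H3K27me3. Another H3K27me3 domain lay within 2000 bp of 239 long domains (33.5%), as it did for 32.3% of the others. The nearest H3K4me3 domain was 1200 bp away at the median and within 1000 bp of 346 domains (48.5%), and the largest gap was 29000 bp. In the sense of the rule, free of H3K4me3 therefore did not mean far from it.

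H3K9ac in untreated seedlings was not used by the rule and was listed for single libraries. H3K9ac domains touched 69 and 69 of the 714 long domains in the 2 regular libraries (9.66% each), where 26.9% and 27.1% of all H3K27me3 domains were touched. In the 3 PHILO libraries 94, 67 and 73 were touched (13.2%, 9.38% and 10.2%), beside 32.3%, 29.6% and 28.9% of all. The length covered by H3K9ac was 1.22% and 1.47% in the regular and 1.46%, 0.90% and 0.829% in the PHILO libraries. PHILO replicate 1 touched the most domains, and the ranges of the methods overlapped for both measures. PHILO minus regular was 1.26 percentage points of domains touched (10.9% ± 1.99, SD, n = 3, against 9.66% ± 0, SD, n = 2; two-sided exact permutation p = 0.7). For length it was -0.284 points (1.06% ± 0.343, SD, n = 3, against 1.35% ± 0.177, SD, n = 2; two-sided exact permutation p = 0.3). The smallest p that 10 splits allow is 0.1, so this design could not reach 0.05. Over the 1167 H3K9ac domains with the same ends in all 5 libraries, the regular libraries differed from each other by less than sampling noise. Their chi-square per degree of freedom was 0.901, while PHILO pairs gave 1.45 to 1.94. Domains with other ends were not compared. The lists of the regular libraries were not identical, with 14046 and 14134 domains, so both libraries were kept. Counted as 1 sample, they gave 1.26 points (exact permutation p = 0.75) and -0.284 points (exact permutation p = 1). Without PHILO replicate 1 the difference in domains touched was 0.140 points and without PHILO replicate 2 it was 2.03. The length difference without PHILO replicate 1 was -0.481, without PHILO replicate 3 -0.167, and without regular replicate 2 -0.159. With H3K9ac domains of a log2 fold of at least 1, it turned to 0.274 points and the difference in domains touched grew to 3.17 (exact permutation p = 0.1 for both).

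By length, H3K9ac covered a smaller share of the long domains than of either comparison set in every library. By domains touched, the order to the shorter set was the opposite. Of the shorter domains free of H3K4me3, 8.58% and 8.77% were touched in regular and 11.0%, 8.85% and 7.89% in PHILO libraries, below the long domains in each library. In no library were 85.1% of the shorter and 82.9% of the long domains touched. Shorter domains free of H3K4me3 had 3.19% and 3.26% of their length covered in regular and 3.64%, 2.75% and 2.17% in PHILO libraries. Long domains with H3K4me3 had 11.6% and 12%, and 13.8%, 11.8% and 10.4%. The 3 sets did not overlap. The mean difference within libraries was -1.83 points to the shorter domains (SD 0.308, n = 5, two-sided exact sign-flip permutation p = 0.063) and -10.8 points to the long domains with H3K4me3 (SD 1.04, n = 5, same test, p = 0.063). That p is the smallest that 32 sign patterns allow. H3K9ac and H3K4me3 tend to lie together, so the direction of the second difference follows in part from the rule. The first changed when the ends of the domains were left out. H3K9ac covered 1.44% to 2.44% of the outer 1000 bp of long domains and 0.673% to 1.22% of the rest. With the outer 1000 bp left out of both sets the difference was -0.639 points. This also dropped domains of 2000 bp or less, and 2000 bp is the median width of the shorter set. The effect of the ends and that of the changed set cannot be told apart. With a log2 fold of at least 1 for H3K9ac the first difference was -1.18. In whole seedlings, fewer acetylated cells and less acetylation per cell cannot be told apart.

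**Figure D4:**
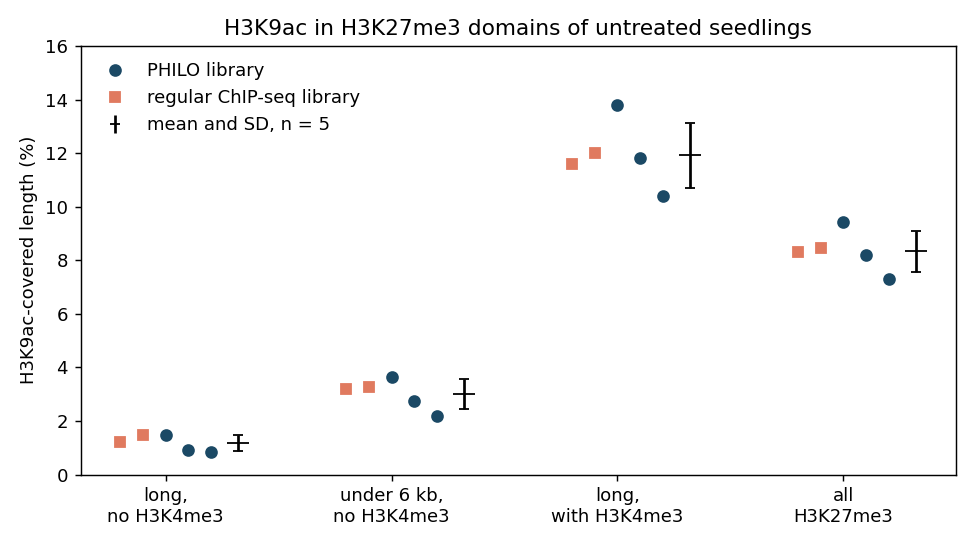
Percent of the length of H3K27me3 domains covered by H3K9ac in untreated Col-0, for 4 sets of domains. Squares are 2 regular and circles 3 PHILO libraries, and the bar beside them gives mean and SD over the 5; long domains free of H3K4me3 sit between 0.829% and 1.47%, below the 2.17% to 3.64% of shorter ones and the 10.4% to 13.8% of long ones with H3K4me3.

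Few long domains were acetylated, and the libraries shared some of them. No library touched 592 of the 714 (82.9%). Of the 122 touched by at least 1 library, all 5 touched 33 (4.62% of all long domains), 13 were touched in 4, 28 in 3, 23 in 2 and 25 in 1. H3K9ac domains on long domains were weak, with a median log2 fold over IgG of 1.01 and 0.85 in regular and 1.07, 1.27 and 1.30 in PHILO libraries. H3K9ac domains that touched no H3K27me3 had 1.45 and 1.51, and 1.95, 2.03 and 2.04. Of the 39 long domains over listed genes, 34 had no H3K9ac in any library, 3 had it in 1 library, and those of *FLC* and *WOX2* had it in all 5. At *FLC* the strongest H3K9ac domain began at 3178801 in every library and ended at 3179400 or 3179600, at the start of the gene. It had log2 folds of 1.40 and 1.50 in regular and 1.78, 2.16 and 1.67 in PHILO libraries, and H3K9ac took 600 to 1400 bp of the 8000 bp domain. At *WOX2* the H3K9ac domain of 1400 or 1600 bp lay over the gene, with log2 folds of 0.88 and 0.83, and 1.04, 1.23 and 1.07. Both genes were thus acetylated over a small part of a long H3K27me3 domain in each of the 5 libraries.

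JA changed H3K9ac in few of the long domains. Gains of the large-scale experiment touched 37 (5.18%, 95% Wilson interval 3.78% to 7.06%), beside 6.24% of all H3K27me3 domains. Time course gains touched 38 (5.32%, 3.90% to 7.22%), beside 10.4%, and time course losses touched 28 (3.92%, 2.73% to 5.61%), beside 8.26%. In the same order, the shares were 3.58%, 3.87% and 3.60% for shorter domains free of H3K4me3, and 11.2%, 30.1% and 19.2% for long domains with H3K4me3. By domains touched, the long domains thus lay above the shorter set and below the other. Wide domains offer more room, so calls were also counted per Mb: 5.82 large-scale gains, 6.39 time course gains and 4.26 losses. Shorter domains free of H3K4me3 had 14.8, 16.4 and 15.3, and all H3K27me3 domains 16, 28.0 and 21.7. Long domains with H3K4me3 had 12.1, 34.8 and 20.8. Calls that cross an edge were counted whole, and shorter domains have more edges per Mb, which raises their values. By length covered, the long domains had 0.803%, 0.789% and 0.446%, and the shorter ones free of H3K4me3 1.53%, 1.52% and 1.19%. No change was called in 635 long domains (88.9%). Of the 1662 covered genes, large-scale gains overlapped 33 (1.99%), beside 10.2% of all protein-coding genes. Time course gains overlapped 32 (1.93%), beside 16.5%, and time course losses 28 (1.68%), beside 12.7%. These lists were called on pooled libraries and carry no replicate error, so no test was made. The gains and losses of the time course come from the same libraries, while each experiment has its own controls.

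The experiments shared many of these domains. Of the long domains, 22 had a gain in each experiment, which is 59.5% of those with a large-scale gain and 57.9% of those with a time course gain. Over all H3K27me3 domains 57.7% of those with a large-scale gain also had a time course gain. The gains in long domains were larger in fold and smaller in count than the lists as a whole. Their median log2 fold was 0.52 for 41 large-scale and 0.60 for 45 time course gains, against 0.29 and 0.24 in the whole lists. A log2 fold of at least 1 was reached by 12 (29.3%, against 3.87%) and 8 (17.8%, against 2.48%). Median counts after JA were 221 and 232, against 431 and 523, so each fold has a wider counting error. H3K9ac was absent from all 5 untreated library lists at 23 of the 41 and 23 of the 45, against 6.48% and 5.85% of the whole lists. A smaller untreated count gives a larger fold for the same rise. At smaller counts a call also needs a larger fold to pass the FDR limit of the lists. The part of both in the higher folds was not tested.

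The strongest gain in both experiments lay in the domain of *MYB24* and *MYB115*, at chromosome 5, 16136401 to 16146800, which had a H3K27me3 log2 fold of 2.76. *MYB24* acts in JA-dependent stamen development. The gain covered 1200 bp over the non-coding RNA gene AT5G40348, 200 bp inside the edge. Counts were 183 after JA against 37 in the control in the large-scale experiment (log2 fold 2.38, 95% counting interval 1.87 to 2.93) and 340 against 43 in the time course (3.00, 2.54 to 3.49). No untreated library had H3K9ac there.

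*CSLA10*, of the cellulose synthase-like A family that makes mannans, came next. Its domain at chromosome 1, 8513201 to 8520000, had 866 against 218 counts (log2 fold 2.07, 1.85 to 2.29) and 899 against 186 (2.29, 2.06 to 2.52). The large-scale gain spanned 50% of the H3K27me3 domain and ran over its edge, the largest share taken by any single gain of that experiment. *JRG21*, annotated as jasmonate-regulated, gained over 3600 bp at chromosome 3, 20765801 to 20769400, with 898 against 244 counts (1.96) and 862 against 227 (1.94). Its H3K27me3 domain also held weaker calls towards *SZF1* beyond its other edge, 0.17 for a large-scale gain and 0.51 and 0.28 for a time course gain and loss. These 3 calls overlap, so the same stretch was called in both directions and no direction is drawn from it.

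*VSP1*, a storage protein gene and JA marker, had 430 against 151 counts (log2 fold 1.59) and 594 against 277 (1.12) in the domain at chromosome 5, 8506001 to 8514600. *MBP1* had 171 against 57 (1.66) and 256 against 153 (0.76) at chromosome 1, 19350401 to 19368600. Its 3 lectin neighbours in that domain, AT1G52050 to AT1G52070, were not part of the gain. *JAZ8*, a repressor of the JA response, had 340 against 122 (1.56) and 146 against 83 (0.83) at the edge of a domain of 23600 bp. A time course loss was also called in that domain. The GDSL lipase gene AT1G54020 had 283 against 86 (1.80) and 450 against 233 (0.96) in a domain that covers 9 genes. For these 4 genes the fold was lower in the time course, where the called stretch also differed in width for all but *MBP1*.

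Other gains in both experiments were found at *LAS1*, the lanosterol synthase gene (log2 fold 1.03 and 1.31), *CHX17*, a cation exchanger gene (0.95 and 0.90), *GRX480*, a glutaredoxin gene (0.78 and 0.73), and *GL3*, a bHLH gene of trichome formation (0.65 and 0.65). The transporter gene *ABCG9* had 1.25 in the large-scale experiment, while the gain in both lay over AT4G07815 in the same domain (0.70 and 0.22). Of the 23 overlapping gain pairs, 11 were higher in the large-scale experiment, 13 had no untreated H3K9ac at the large-scale gain, and 5 reached 1 in both experiments. *PDF1.2* and *JAZ4* lay in long domains without a gain in either list.

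**Figure D5:**
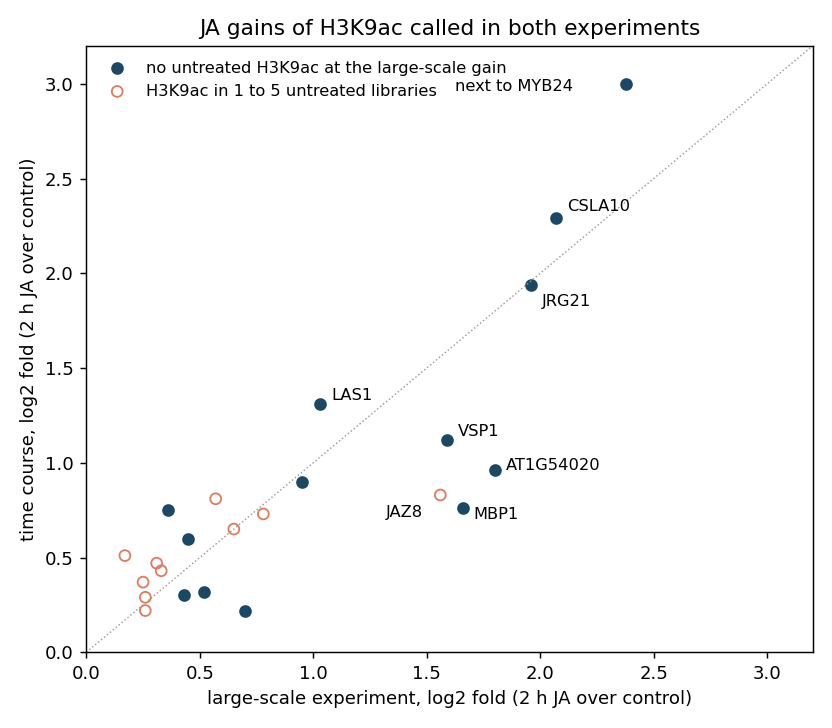
Authors' deposited log2 fold of H3K9ac, 2 h JA over control, for 23 gains in long domains called in both experiments: large-scale on the x axis and time course on the y axis, with the diagonal dotted. Filled points had no H3K9ac in 5 untreated libraries at the large-scale gain and open points had it in 1 to 5; values run from 0.17 to 2.38 and from 0.22 to 3.00, and all 5 points at 1 or more in both are filled.

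At 20 of the 30 time course losses in long domains all 5 untreated libraries had H3K9ac, and at 3 none did. In the whole list of losses the shares were 91.1% and 2.75%. All 5 had it at 10 of the 41 large-scale and 10 of the 45 time course gains. A loss is called where the control has more H3K9ac, so this contrast follows in part from the call. The 30 losses had a median log2 fold, control over JA, of 0.49 against 0.25 in the whole list, and 4 reached 1. Their median control count was 231 against 633, so here too a call needed a larger fold to pass the FDR limit. The ERF-type gene AT1G33760, beside *CYP76C5* and *CYP76C6* in 21000 bp at chromosome 1, 12218201 to 12239200, had 472 counts in the control and 180 after JA (1.38). The peroxidase gene AT5G64120 had 218 and 100 (1.11). *XTH18*, which remodels cell walls, had 354 and 175 (1.00), and *WOX2* had 433 and 217 (0.98). The highest value, 3.10 from 216 against 25 counts, was a 200 bp call at chromosome 5, 18311601 to 18311800, between genes of the widest domain. That sequence has 366 other matches in the genome of at least 100 bp and 95% identity, so its reads cannot be placed with certainty. None of the 41 and 45 gains and none of the other losses had such a match.

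MYC2 summits fell in 87 long domains (12.2%, 95% Wilson interval 9.99% to 14.8%), beside 7.32% of all H3K27me3 domains, 3.76% of the shorter ones free of H3K4me3 and 24.8% of the long ones with H3K4me3. Per Mb there were 17.3 summits, against 24.0, 18.1 and 33.9 in the same sets. Of the 122 summits, 44 (36.1%) lay within 1000 bp upstream of the nearest start, and 24 domains had 2 or more. The median fold of the authors' peak caller was 2.96 against 2.59 for all 3464 peaks. The highest, 6.80, lay 86 bp inside *VSP1*, followed by 5.91 at AT1G47395, and 5.74 near AT2G39980. CACGTG lay within 50 bp of 30 summits (24.6%) against 27.3% of all, and CACGTT of 35 (28.7%) against 20.2%. In the windows of 61 bp the shares were 15.6% against 22.4% for CACGTG and 21.3% against 15.5% for CACGTT. Of the 14 windows of 61 bp at named domains, 0 had CACGTG and 6 had CACGTT, as the printed windows of *CSLA10*, *MBP1*, *GRX480* and AT4G23680 show, while those at AT1G47395, AT2G39980 and AT5G40340 had neither. The CACGTT search was added after the CACGTG counts were known.

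MYC2 and JA gains met in the same domains in part. Of the 53 long domains with a gain in either experiment, 27 (50.9%) held a MYC2 summit, against 60 of 661 (9.08%) without a gain. Both were counted anywhere in a domain. At *VSP1* the highest summit, 8509115, lay within the large-scale gain, 8507401 to 8510200. In the domain of *GL3* the summits lay at 16523126 to 16524548 and that gain at 16529401 to 16530200. The same split was not made for other H3K27me3 domains, so it is not shown to be particular to the long ones. The domains with a gain also had H3K9ac in at least 1 untreated library more often, 24 of 53 (45.3%) against 98 of 661 (14.8%), and the part of this in the MYC2 share was not tested. Their H3K27me3 was like that of the rest, with a median log2 fold of 2.29 against 2.23 and a median width of 9000 against 8400 bp. MYC2 was found without a gain at the 3 summits of the domain around AT1G47395 and gains without a MYC2 summit in the domains of *LAS1* and *JAZ8*. Of the 39 domains over listed genes, 5 had a gain, 2 a loss and 4 a MYC2 summit.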

How the data were processed

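ChIP-seq was analysed from deposited lists of untreated and JA-treated seedlings, grouped by their titles. For the untreated IgG library and the MYC2 libraries, the antibody given elsewhere in the labels is anti-H3K9ac, against the titles, and for MYC2 the listed genotype is Col-0. The titles were followed. According to the study's methods, reads were aligned to TAIR10 by Bowtie2, replicates were merged, and domains came from epic2 and MYC2 peaks from MACS2. The submitters' processing notes give Bowtie2 2.4.1, SICER 0.0.52, MACS2 2.2.7.1 and deepTools 3.5.2. The 12 deposited domain lists give whole-number counts of treatment and control, an epic2 FDR, which is an adjusted p-value and at most 0.05 in the pooled lists, and a log2 fold scaled by library totals. The deposited score columns repeat other columns on another scale and were not needed. The MYC2 list gives the authors' fold enrichment per peak as a ratio, and the deposited -log10 of its q-value. Depth shows only through counts in domains: the long domains held 4398930 H3K27me3 and 506456 IgG counts, and the whole H3K27me3 pool was 1.80 times the IgG.

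Each domain includes its listed end, which makes every width a multiple of 200 bp. Positions are given from 1. Overlap meant 1 bp, and genes counted as covered from 50% of their length. Names, gene types and sequence came from the RefSeq copy TAIR10.1, which has the same nuclear chromosomes, and 1 listed JA gene (JAZ13) had no match. Named domains were the 10 widest, the 5 of highest fold, the 5 with most genes, up to 12 with gains in both experiments, the 3 strongest losses, up to 5 with the strongest MYC2 summits, and those over listed genes. The domains, lists and rules were chosen with earlier results of these data known. Library values were compared by two-sided exact permutation (10 splits, or 32 sign flips within libraries). The pooled H3K9ac list was left out, because library lists show replicate error. Pooled lists got counts with 95% Wilson intervals, which cover counting error only, and the log2 counting intervals come from the pair of counts. Repeats of JA calls were sought with blastn 2.17.0 (95% identity, 100 bp). Overlap functions were run first on made-up intervals with known answers, with 0 failures in 2420 comparisons. Alternatives were stricter fold, FDR, width and overlap limits, edges left out, libraries left out and a replicate block. Counting both regular libraries as 1 and the CACGTT search were added after seeing the data. Python 3.11.15, numpy 2.4.6, pandas 2.3.3, scipy 1.17.1 and matplotlib 3.10.9 were used.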

Additional observations from a re-analysis of the deposited data

How the results depend on the processing

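Of 74 alternatives over 11 results, 67 were classed as the same, 6 as moved and 1 as reversed. Shares were the same if they stayed within the Wilson interval of the main value. Numbers of domains or genes were the same within a fixed ratio, which let 966 long domains of at least 5000 bp pass. Differences between methods or sets of domains were the same if their sign held, whatever their size. Among the 67 was the difference to shorter domains, which went from -1.83 to -0.639 points. That alternative left out the outer 1000 bp and domains of 2000 bp or less. Also among them, PHILO minus regular in domains touched went from 1.26 to 3.17 with a log2 fold of at least 1. With a width of at least 8000 bp there were 418 long domains. A log2 fold of at least 0.5 for the JA calls left 2.94%, 3.08% and 1.82% of domains touched by large-scale gains, time course gains and time course losses, and an FDR under 0.001 left 3.78% for large-scale gains. H3K36me3 of a log2 fold of at least 1 covered 0.0341% of the length. With the same limit for H3K9ac, PHILO minus regular in covered length reversed to 0.274 points. The causes were not tested beyond the fewer calls that each limit leaves.

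Leaving out each library in turn gave 0.140 to 2.03 points for PHILO minus regular in domains touched and -0.481 to -0.159 in length. The same gave -1.95 to -1.74 for the difference to shorter domains and -11.0 to -10.3 for that to long domains with H3K4me3. The replicate block on numbers 1 and 2, with PHILO replicate 3 left out, gave 1.61 and -0.167 points, but the numbers share no more than a label and pair no libraries. Over the 1167 domains with the same ends in all 5 libraries, counts of the regular pair differed by no more than sampling noise. Chi-square per degree of freedom was 0.901, against 1.45 to 1.94 for PHILO pairs. The SD of the regular pair may therefore not cover separate preparations. Counted as 1, the regular libraries left the differences at 1.26 and -0.284 points, and -1.81 and -10.8 for the other comparisons. The median long domain had 5232 H3K27me3 counts, whereas JA gains in these domains had 221 and 232 at the median. How small a JA change these counts could show was not tested.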
